A study of Danio rerio with 12 samples.

Results

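DNA methylation in zebrafish embryos (Danio rerio) raised in 1 mM sodium arsenite was compared with that in unexposed embryos of the same age. The exposed group was 4 libraries from pools of embryos kept for 72 hours in 1 mM sodium arsenite (a soluble inorganic arsenic salt) and sampled at 72 hours post fertilisation. The control group was 4 libraries from pools of the same age that received no arsenite. Both groups were offspring of a laboratory stock that began as wild-type fish from a commercial supplier, and the labels name pools of 20 whole embryos, so that each level is an average over all tissues of a pool. These 8 libraries are part of a series of 12, whose other libraries come from embryos in 0.1 mM arsenite. Sites were kept where each of the 8 libraries had at least 20 reads, which left 2343 of the 64466 listed sites (3.63%). Neighbouring kept sites no more than 1000 bp apart were joined into 688 stretches of 2 or more sites, which held 1458 sites, and the other 885 sites stood alone.

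In vertebrates DNA is methylated mainly at cytosines that precede a guanine, and most of the zebrafish genome carries this mark, apart from CpG-rich promoters and some regulatory regions. DNA methyltransferases write it with S-adenosylmethionine as the methyl donor. Many animals detoxify inorganic arsenic by adding methyl groups from the same donor, so competition for it is one route by which arsenic has been proposed to alter DNA methylation. The comparison addresses whether a high dose during the first days of development changes methylation at single sites, over neighbouring sites, or over the measured genome as a whole.

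The assay, digital restriction enzyme analysis of methylation (DREAM), reads only the sequence CCCGGG. SmaI cuts it where unmethylated and leaves ends that begin with GGG, and XmaI then cuts the methylated copies and leaves CCGGG. The level of a site is the share of its reads with the methylated end. Libraries held 1491247 to 1700854 reads at 1 mM and 1425613 to 1666841 in controls, of which the kept sites took 88.4 to 93.8% and 91.3 to 94.8%. The median kept site had 342.0 reads per library, and the median stretch 1134 when the reads of its sites were summed. One spiked standard, the one with the lowest level, stood apart in part of the exposed group: its level reached 2.57% in library 1 and 1.78% in library 3 of the exposed group, with 0.823% and 0.497% in the other 1 mM libraries and 0.215 to 0.920% in controls. Genes and other annotations at the sites were not analysed here, and all positions are given in danRer7.

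Methylation over all kept sites differed between exposed and control embryos by less than the spread between libraries. It averaged 80.4% ± 0.201 at 1 mM and 80.2% ± 0.306 in controls (SD, n = 4 each), with single libraries at 80.4, 80.2, 80.2 and 80.6% at 1 mM and at 80.1, 80.7, 80.1 and 80.0% in controls. The difference was 0.137 points, with an interval of -0.50 to 0.60 (exact two-sided permutation p = 0.429, adjusted over 4 tests 0.543). This interval holds the shifts at which the permutation test gave an unadjusted p over 0.05, so its coverage is at least 95%. Control library 2 was the highest of the 8, and the other controls lay below every 1 mM library. Without that library the difference was 0.289 points (exact permutation p = 0.0857, adjusted 0.114). It was smaller without 1 mM library 4, at 0.0495 points, without control library 4, at 0.0711, and without control library 1, at 0.0898.

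Sites fell into 3 classes by the mean of the 8 libraries, and no class differed past the threshold. The 559 sites at 10 to 90% averaged 68.1% ± 0.593 at 1 mM and 67.7% ± 1.08 in controls (SD, n = 4 each), a difference of 0.37 points with an interval of -1.77 to 2.02 (exact permutation p = 0.543). Without control library 2, at 69.3% in this class with the other controls at 66.9 to 67.4%, the difference was 0.89 points (exact permutation p = 0.0571, adjusted 0.114). It was 0.0952 points without 1 mM library 4 and 0.0839 without control library 1. The 1546 sites over 90% averaged 97.1% ± 0.124 and 97.0% ± 0.135, where the interval was -0.23 to 0.33 points (exact permutation p = 0.514). In the class under 10%, 238 sites averaged 0.607% ± 0.0382 at 1 mM and 0.527% ± 0.0372 in controls, 0.08 points apart (-0.02 to 0.15, exact permutation p = 0.0571, adjusted 0.229). The 1 mM libraries there were at 0.630, 0.609, 0.635 and 0.552%, of which the first 3 exceeded every control, while library 4 lay below the control at 0.576%. Weighted by reads, that difference was 0.0023 points. Single sites of this class differed by -1.90 to 6.67 points, with a median size of 0.0582 points. The part of the largest of them in the class mean was not tested. Libraries 1 and 3, the highest here, were also those with the raised standard, and without both of them the difference was 0.0535 points; the part of the standard in the result was not tested. With 4 libraries a group the smallest possible p is 0.0286, and a single test at that value would not pass after adjustment over 4.

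**Figure D1:**
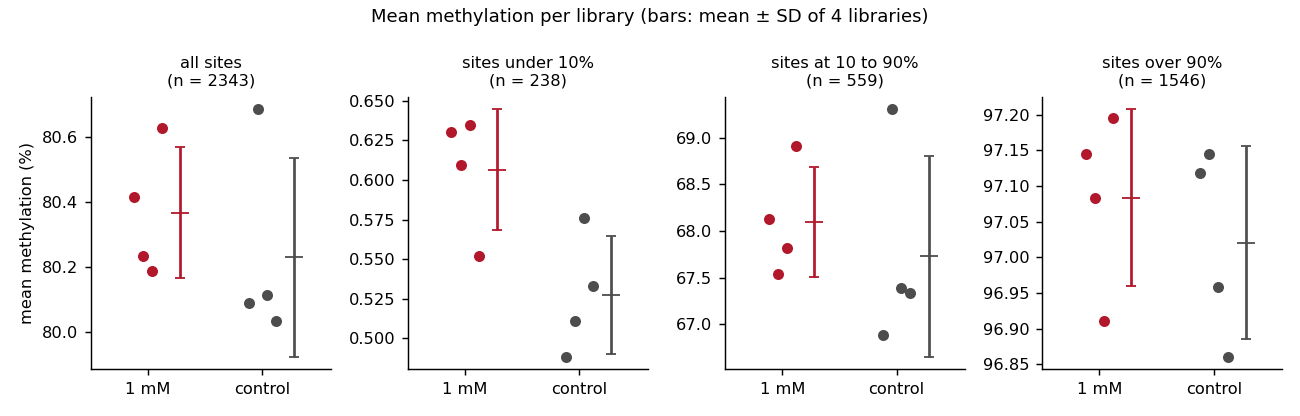
Mean methylation per library in percent, over all kept sites and in 3 classes of sites, with 1 mM libraries on the left and controls on the right of each panel. Points are libraries and bars give the mean ± SD of 4; the vertical axes differ and do not start at 0, and the groups overlap in all 4 panels, in the class under 10% only between 1 mM library 4 at 0.552% and a control at 0.576%.

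At single sites, differences were small and none passed the test. Of 2343 sites, 69.6% differed by under 1 point between the group means and 96.6% by under 5. The median difference was 0.02 points, with 1226 sites higher and 1027 lower at 1 mM. The 2254 sites with both kinds of read were tested with edgeR's quasi-likelihood test and Benjamini-Hochberg adjustment, which called 0 of them (0.0%), with a smallest adjusted p of 0.322. Among the rest, 66 sites had no unmethylated read and 23 no methylated read in any of the 8 libraries. Before adjustment, p was under 0.05 for 70 sites that were higher (3.11%) and 40 that were lower (1.77%) at 1 mM, 4.88% together. Such p-values were most frequent at low levels, with 18 higher and 11 lower of the 238 sites under 10%. The counts were 13 and 7 of 559 sites at 10 to 90%, and 39 and 22 of 1546 over 90%. Limma on log2 odds called 1 site, and 118 sites had an unadjusted p under 0.05 with it. All 4 exposed libraries lay above all 4 controls at 27 sites (1.15%) and below them at 17 (0.726%).

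How large a change these data could have hidden depended on the level and depth of a site. Intervals of 95% came from limma on log2 odds and were converted to points from the control level, without adjustment for the number of sites. The conversion held the control level fixed and cannot leave the range of possible levels, so these intervals are compressed close to full or absent methylation. They lay within 5 points of 0 at 85.0% of sites over 90% and at 97.5% of sites under 10%. Among sites at 10 to 90% the share was 15.9%, and 68.0% were within 10 points. Depth separated these sites further: where the shallowest library had 200 reads or more, 93.1% of 277 intermediate sites had an interval within 10 points, against 28.2% of the 131 sites whose shallowest library had at least 20 but under 50 reads. No intermediate site with at least 200 reads in each library differed by more than 7.77 points.

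**Figure D2:**
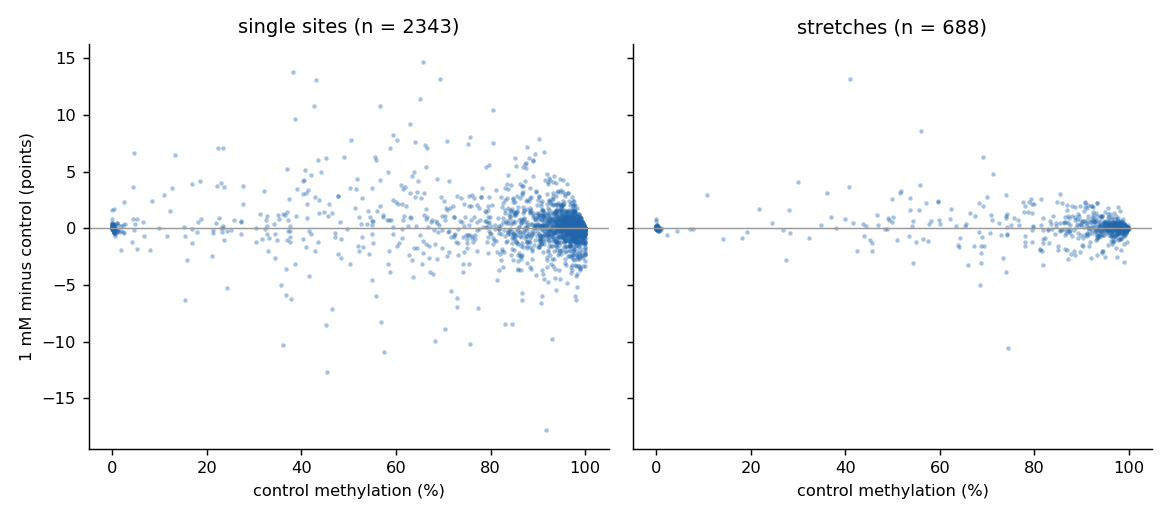
Difference in mean methylation between 1 mM and control (points, vertical axis) against the control level (percent, horizontal axis), for 2343 single sites on the left and 688 stretches on the right. Each point is a site or stretch; points spread around 0 at every level, to beyond 10 points at 13 sites and at 2 stretches.

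The site with the smallest p was a nearly fully methylated one on chromosome 19 at position 16937836. It was read at 96.7, 98.0, 97.7 and 96.3% in the 1 mM libraries and at 99.2, 98.9, 99.1 and 99.0% in controls, so the groups did not overlap. The difference was -1.86 points (edgeR adjusted p = 0.322), and no library had under 422 reads. Another methylated site on the same chromosome, position 38201828, went the other way, with 99.4, 98.8, 98.9 and 99.2% at 1 mM against 98.7, 97.8, 97.9 and 97.7% in controls (difference 1.08 points, edgeR adjusted p = 0.559). At this second site, too, every exposed library lay on one side of all controls.

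Among the 12 sites ranked first by p, the methylated site at chromosome 21 position 31456878 had the largest difference. It was at 93.1, 91.7, 97.4 and 95.4% in exposed embryos, against 86.4, 89.2, 92.1 and 84.8% in controls. One control, library 3, exceeded the lowest exposed library, and the means differed by 6.25 points (interval 2.02 to 8.85, edgeR adjusted p = 0.694). Chromosome 1 position 1292889 had 92.7, 94.7, 93.7 and 82.2% at 1 mM and 81.9, 85.1, 88.2 and 86.1% in controls, a difference of 5.49 points (edgeR adjusted p = 0.559). Library 4 stood among the controls at this site. Without it the difference was 8.37 points and the site was called (edgeR adjusted p = 4.35e-07). With any other single library left out instead, the site was not called (edgeR adjusted p from 0.291 to 0.958). Without 1 mM library 2 the difference was 4.22 points. The interval of this site with all 8 libraries was -0.136 to 10.1 points. On chromosome 6, position 1501435 showed no unmethylated read in any exposed library, 0 of 1068 reads, so an unmethylated share of 0.281% or less is possible. Its controls were at 98.9, 99.4, 99.0 and 99.1% of 174 to 224 reads, so the difference rests on few unmethylated reads. There edgeR gave an adjusted p of 0.581 while limma on log2 odds gave 0.0378.

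The other 7 of those 12 sites were unmethylated in nearly every library, and at most of them 1 library made the difference. On chromosome 5 position 14890555, 1 mM library 3 was at 1.00% and the other 7 libraries at 0 to 0.045%. Position 11070915 on chromosome 4 had the same library at 1.32%, with the others at 0 to 0.142%; library 3 of the 0.1 mM group was at 1.41% there. Library 4 at 1 mM stood alone at 1.19% on chromosome 18 position 37192948 and at 1.22% on chromosome 8 position 56092585. The neighbour of the last site, 197 bp away at position 56092388, differed the other way, with control library 4 at 1.24% and the rest at 0 to 0.123%. These sites were read at 1828 reads or more in each library, and a library without a methylated read allows a level of 0.112 to 0.164% at most. Without the library that stood apart, the differences shrank to 0.0184, 0.0148, 0.0215, 0.0366 and -0.0041 points.

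Single libraries of this kind were as frequent in controls. In a search defined after the values were seen, over the 218 sites with a mean under 1.5%, a site was counted where 1 library reached 0.8% with at least 10 methylated reads and the other 7 stayed at 0.4% or less. There were 10 such sites, 5 with a 1 mM library and 5 with a control library apart. The library that stood apart was at 0.836 to 2.08%, with 11 to 49 methylated reads. Reads carried no molecular identifiers, so how many DNA molecules lie behind these reads is not known.

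Of the remaining unmethylated sites, chromosome 6 position 4440116 was lower at 1 mM, with 0.0721, 0.0758, 0.149 and 0.139% against 0.0955, 0.866, 0.197 and 0.893% in controls. Control libraries 2 and 4 set this difference of -0.40 points, and without control library 1 it was -0.54 and called (edgeR adjusted p = 0.00179). Chromosome 8 position 2751348 was higher at 1 mM in every library, at 0.209, 0.264, 0.767 and 0.248% against 0.132, 0, 0.0935 and 0.134% in controls (edgeR adjusted p = 0.559). Its depth was 1887 to 2266 reads per library, so these levels rest on few methylated reads. Without 1 mM library 3 the difference fell from 0.282 to 0.150 points (edgeR adjusted p = 0.985). Leaving out 1 library also led to a call at 2 of the sites where a library stood apart: position 14890555 on chromosome 5 without 1 mM library 4 (0.35 points, edgeR adjusted p = 0.0161) and position 56092388 on chromosome 8 without control library 1 (-0.39 points, adjusted p = 0.0327).

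**Figure D3:**
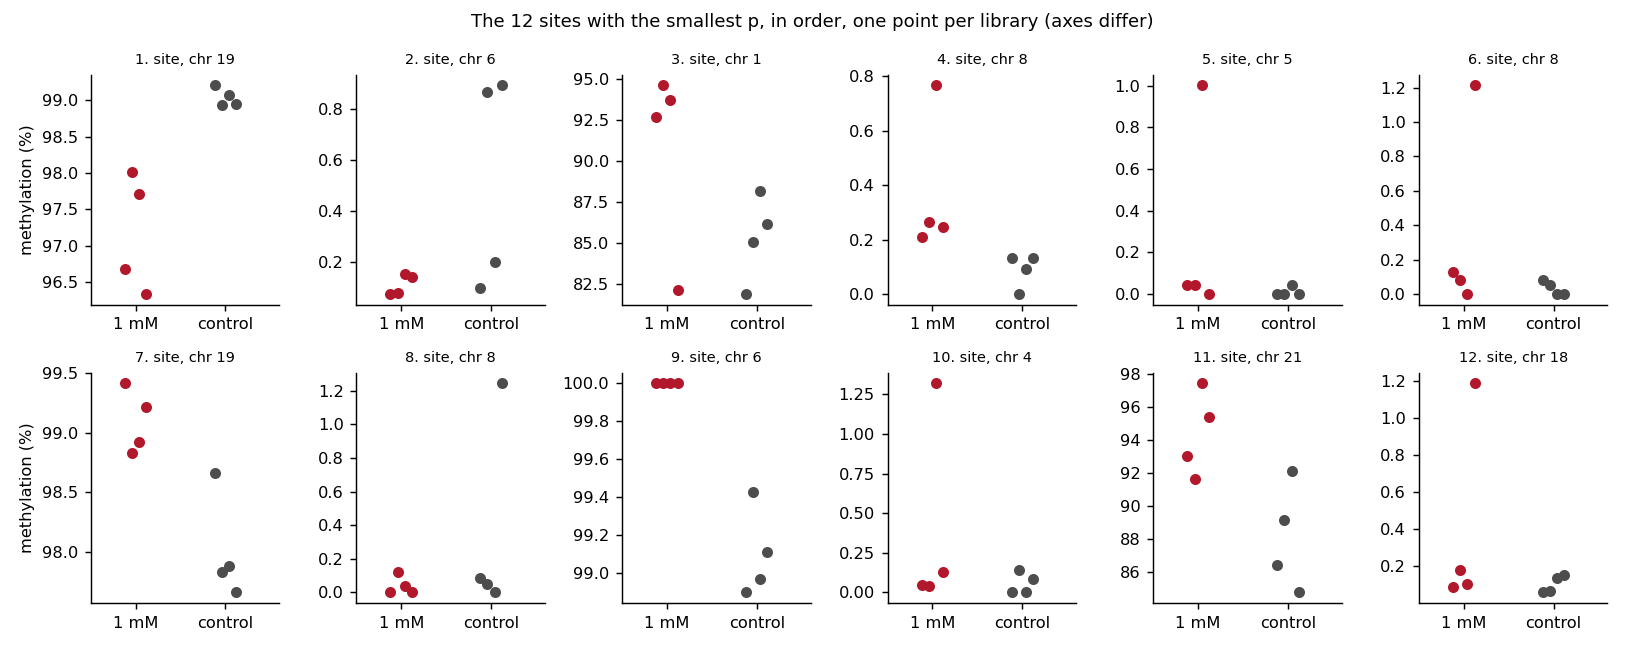
Methylation in percent at the 12 sites with the smallest p, in order of p, with the 4 libraries at 1 mM on the left and the 4 controls on the right of each panel (vertical axes differ). In panels 5, 6, 8, 10 and 12 a single library at 1.00 to 1.32% lies above the other 7.

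Differences of 10 points or more were seen at 13 sites, 8 of them higher at 1 mM and 5 lower; they lay at shallow sites. The median depth of these sites was 50 reads, with 27 to 80 across them, and at 10 of the 13 the shallowest library had fewer than 50 reads. The groups overlapped at all 13. The largest difference was on chromosome 3 at position 62372532, which was at 67.7, 56.2, 80.6 and 91.3% in exposed libraries and 89.7, 100, 93.5 and 84.0% in controls. Its difference of -17.8 points had an interval of -38.5 to -1.30 (edgeR adjusted p = 0.694), on 21 to 32 reads per library. Chromosome 18 position 35181080 was higher, with 82.1, 90, 80 and 69.0% at 1 mM against 72.0, 79.4, 45.7 and 65.4% in controls; the difference was 14.6 points, and 8.01 to 19.2 when each library was left out. Another lower site, chromosome 7 position 49624195, was at 24.6, 19.3, 32.8 and 26.8% against 32.6, 35.6, 41.1 and 35.2% in controls, so that only 1 mM library 3 and control library 1 crossed (difference -10.3 points, interval -16.9 to -2.11). The edgeR adjusted p was 0.936 at each of the 12 sites after the first.

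The other 10 sites of this size had means between 32.7% and 91.0% at 1 mM and between 38.3% and 80.5% in controls. Position 41920938 on chromosome 12 differed by 13.2 points, position 45760461 on chromosome 9 by 11.4 and position 2864496 on chromosome 20 by 10.8, all higher at 1 mM, as was position 11931384 on chromosome 7 by 10.4. Lower were position 17396236 on chromosome 10, by -12.7 points, and position 3353132 on chromosome 21, by -10.2. Single libraries carried much of these values: with 1 library left out, the smallest differences were 8.04 points on chromosome 12, -7.80 on chromosome 10 and -6.40 on chromosome 21. The remaining 4, positions 26652709 and 26652802 on chromosome 23 and positions 18948590 and 3461273 on chromosome 18, lie in stretches and are described with their neighbours.

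Stretches, with reads summed over neighbouring sites, had more reads and narrower intervals than the full set of single sites, again with nothing called. That set includes sites outside stretches, so the gain from summing alone was not measured. The same edgeR test on the 684 stretches with both kinds of read called 0 (0.0%), with a smallest adjusted p of 0.805, and limma on log2 odds called 0 as well. At an unadjusted p under 0.05, 27 stretches were higher (3.95%) and 7 lower (1.02%) at 1 mM with edgeR, 34 in all, and 35 with limma. The exposed libraries lay above all controls at 10 stretches (1.45%) and below them at 5 (0.727%). Group means differed by under 1 point at 78.8% of stretches and by under 5 at 99.3%. The interval lay within 10 points at 97.5% of stretches, and at 91.6% of the 191 stretches at 10 to 90%. No alternative led to a called stretch, including other gaps, other read minimums and 1489 runs built from listed sites of any depth, in which only the summed reads had to reach 20 and which held 4190 sites.

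Of 770 pairs of neighbours within a stretch, 375 (48.7%) had depths within 1.1 times of each other in each of the 8 libraries, at a median distance of 224 bp. In such pairs the reads may come from the 2 ends of the same fragments, so summed reads may count a fragment at both ends. Where both sites of such a pair were at 10 to 90%, their differences between 1 mM and control had the same sign in 62 of 88 pairs, with Pearson's r = 0.57. Among the 37 pairs of intermediate neighbours with unequal depth the signs matched in 20, with r = 0.67. Over all 770 pairs the signs matched in 392 and were opposite in 347 (r = 0.27). These are descriptions across sites that share the same 8 libraries. Sites moved in opposite directions within 319 of the 688 stretches, all sites were higher at 1 mM in 197 and all lower in 144.

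The stretch with the smallest p lay on chromosome 7 from 13045092 to 13045190 and held 2 methylated sites 98 bp apart. It was at 99.6, 100, 99.5 and 99.6% in the 1 mM libraries and 96.5, 97.7, 98.3 and 98.7% in controls, and the groups did not overlap. The difference was 1.88 points (interval 1.49 to 2.26, edgeR adjusted p = 0.805), and 1.43 to 2.18 when each library was left out. So close to 100% the interval is compressed, as it holds the control level fixed and cannot pass 100%. The controls had an SD of 0.988. The sites of this stretch had depths within 1.1 times of each other, and they differed by 1.71 and 2.05 points. The groups did not overlap at either, but the sites were shallow, with as few as 56 and 57 reads in a library. At the first site, 1 mM library 1 was at 99.18% of 122 reads and control library 4 at 99.15% of 118. That gap is smaller than a single read.

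A larger difference was measured on chromosome 4 from 17905506 to 17905642, a partly methylated pair of sites 136 bp apart. It stood at 76.2, 76.3, 73.2 and 76.3% in exposed embryos and at 65.4, 70.0, 67.7 and 73.7% in controls, with at least 613 summed reads per library. The 2 sites had depths within 1.1 times of each other in each library, so these reads may come from both ends of the same fragments. One control, library 4, lay above the lowest exposed library, number 3. The difference was 6.32 points (interval 1.54 to 10.4, edgeR adjusted p = 0.805) and ranged from 5.06 to 7.81 when each library was left out. The first site of the pair was at 85.3% ± 1.61 at 1 mM and 79.7% ± 3.63 in controls, and the second, where the groups did not overlap, was at 65.7% ± 1.78 and 58.7% ± 4.11 (SD, n = 4 each); neither passed after adjustment (edgeR adjusted p = 0.756 and 0.883).

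The largest difference of any stretch was on chromosome 23 from 26652709 to 26652802. It had 62.2, 45.7, 56.8 and 51.9% at 1 mM and 40.8, 33.7, 49.0 and 40.3% in controls, 13.2 points apart (interval 3.07 to 22.8, edgeR adjusted p = 0.805). Control library 3 lay above the lowest exposed library. Its 2 sites, 93 bp apart, differed by 13.1 and 13.8 points, and their depths differed by up to 1.39 times in a library. The shallowest library had 86 summed reads.

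The largest negative difference was on chromosome 18 from 3461273 to 3461775. All exposed libraries, at 67.2, 68.2, 65.5 and 54.7%, lay below the controls at 77.3, 74.2, 72.5 and 73.8%. The difference was -10.5 points (interval -17.8 to -3.31, edgeR adjusted p = 0.805), on 58 or more summed reads. Its sites differed by -10.9 and -9.79 points, and at each of them the groups overlapped: the first had 54.4% in 1 mM library 2 against 50% in control library 4, and the second had 100% in 1 mM library 1. Elsewhere on this chromosome, from 47858034 to 47858485, exposed libraries 1 to 3 were at 96.4, 94.1 and 93.5% and library 4 at 100%, while controls were at 98.6 to 99.2% (difference -2.96 points, edgeR adjusted p = 0.805).

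**Figure D4:**
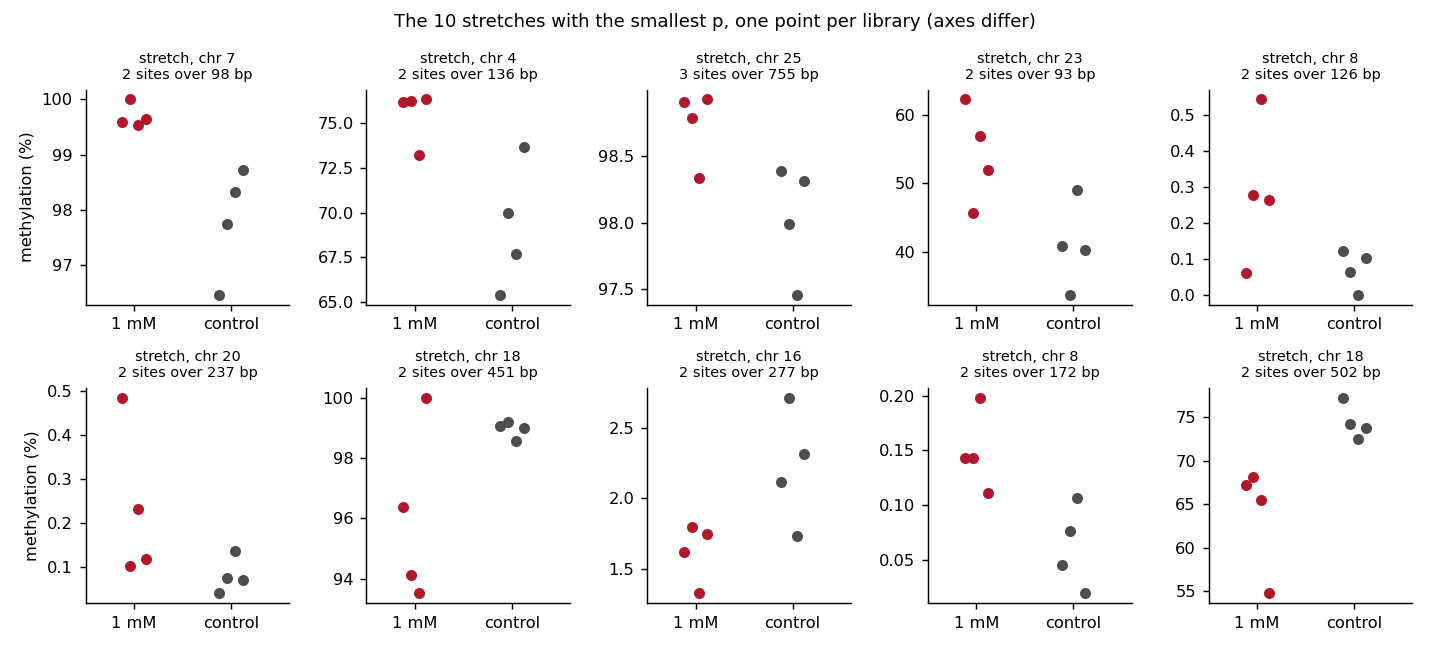
Methylation in percent of the 10 stretches with the smallest p, from summed reads, with the 4 libraries at 1 mM on the left and the 4 controls on the right of each panel (vertical axes differ). The groups do not overlap on chromosome 7, in the stretch over 172 bp on chromosome 8 and in the stretch over 502 bp on chromosome 18.

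Of the other stretches with small p, 3 were unmethylated and higher at 1 mM. On chromosome 8 from 18035257 to 18035429 the exposed libraries were at 0.143, 0.143, 0.198 and 0.111% and the controls at 0.0452, 0.0766, 0.107 and 0.0199%, which did not overlap (difference 0.09 points, edgeR adjusted p = 0.805). The nearest of these values, 0.111 and 0.107%, were almost equal. Depths were within 1.1 times of each other in 6 of the 11 named stretches of 2 sites, this stretch included. Summed reads may count a fragment at both ends there. From 24092918 to 24093044 on the same chromosome the exposed libraries were at 0.0602, 0.279, 0.543 and 0.264% and the controls at 0 to 0.120%. On chromosome 20 from 53562217 to 53562454, 1 mM library 1 was at 0.485% and the other exposed libraries at 0.104 to 0.233%, against 0.0417 to 0.137% in controls. A low stretch on chromosome 16 from 44835623 to 44835900 went the other way, at 1.62% ± 0.208 at 1 mM and 2.22% ± 0.406 in controls (SD, n = 4 each). That difference of -0.60 points came from its second site, at 2.93% ± 0.520 and 4.12% ± 0.625, where the groups did not overlap (edgeR adjusted p = 0.756). A stretch of 3 methylated sites on chromosome 25 from 20285171 to 20285926 was at 98.7% ± 0.275 and 98.0% ± 0.422. Its last site differed most, at 82.7% ± 9.82 and 75.3% ± 4.63. The summed difference of 0.70 points also depends on the share of reads at that site. It was 2.52 points with unweighted site levels and 0.0686 with a minimum of 50 reads, which drops that site.

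More stretches had a higher than a lower mean at 1 mM, in the unmethylated class about as often as over all levels. Of the 98 stretches under 10%, 60 were higher and 34 lower, beside 398 higher and 286 lower of all 688. At an unadjusted edgeR p under 0.05 the split was 13 against 3 of 94 tested, beside 27 against 7 of all 684 tested stretches, which include these. Such p-values were more frequent in this class than in the others. The split was 5 against 1 of 191 stretches at 10 to 90%, and 9 against 3 of 399 over 90%. The stretches under 10% averaged 0.398% ± 0.0287 at 1 mM and 0.369% ± 0.0101 in controls (SD, n = 4 each). Library 3 was the highest, at 0.436%, and without it 51 of this class were higher and 43 lower, with 4 against 3 at an unadjusted p under 0.05. Without control library 1 the split at that p was 6 against 5. Leaving out 1 mM libraries 1 and 3, the ones with the raised standard, gave 7 against 1. The part of that standard in the split was not tested.

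The remaining stretches chosen for size overlapped widely. On chromosome 18 from 18948590 to 18948679 the exposed libraries were close together at 68.0, 62.8, 62.8 and 65.0%, while controls spread over 51.4, 71.0, 41.4 and 60.5% (difference 8.56 points, interval -4.99 to 19.5). Leaving out control library 3 gave 3.65 points, and leaving out control library 2 gave 13.5. On chromosome 2 from 19657601 to 19658139 the means were 63.5% ± 5.94 and 68.5% ± 5.28, with an interval of -14 to 3.32 points. The summed difference was larger in size than at either of its 2 sites, which differed by -4.45 and -2.58 points. With unweighted site levels the difference was -3.52 points. The summed difference also depends on the share of reads at each site. These sites averaged 92.5% and 47.1% over the 8 libraries, and their depths differed by up to 1.885 times in a library.

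Along the longer runs of sites, methylation followed the same profile in both groups. The longest run had 10 sites over 4494 bp on chromosome 6, from 25983513 to 25988007, and was highly methylated throughout. Summed over at least 4609 reads per library it stood at 92.6% ± 0.520 at 1 mM and 92.5% ± 0.975 in controls (SD, n = 4 each; interval of the difference -1.62 to 1.45 points). The dip in its middle, at position 25985347, was at 84.4% ± 2.43 and 85.1% ± 2.12, between neighbours above 90% in both groups. A run of 9 sites on chromosome 4 from 61296643 to 61299689 was the deepest of the 3, with 25929 summed reads or more. Its first site was at 97.5% ± 0.408 at 1 mM and 97.3% ± 0.119 in controls, and 291 bp further on methylation was at 58.5% ± 2.05 and 57.3% ± 1.97. This step between neighbours was present in both groups, and the whole run was at 62.3% ± 2.73 and 64.0% ± 1.11 (interval -6.41 to 2.95 points). That difference of -1.64 points was -0.29 with unweighted site levels, and 5 sites of the run were higher and 4 lower at 1 mM. At its deepest site, position 61299279, all exposed libraries lay below all controls (difference -3.17 points, edgeR adjusted p = 0.936). The 7 sites on chromosome 11 from 21291561 to 21292675 were at 95.8% ± 0.675 and 95.4% ± 1.13. The edgeR adjusted p was 0.985 for each of the 3 runs.

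**Figure D5:**
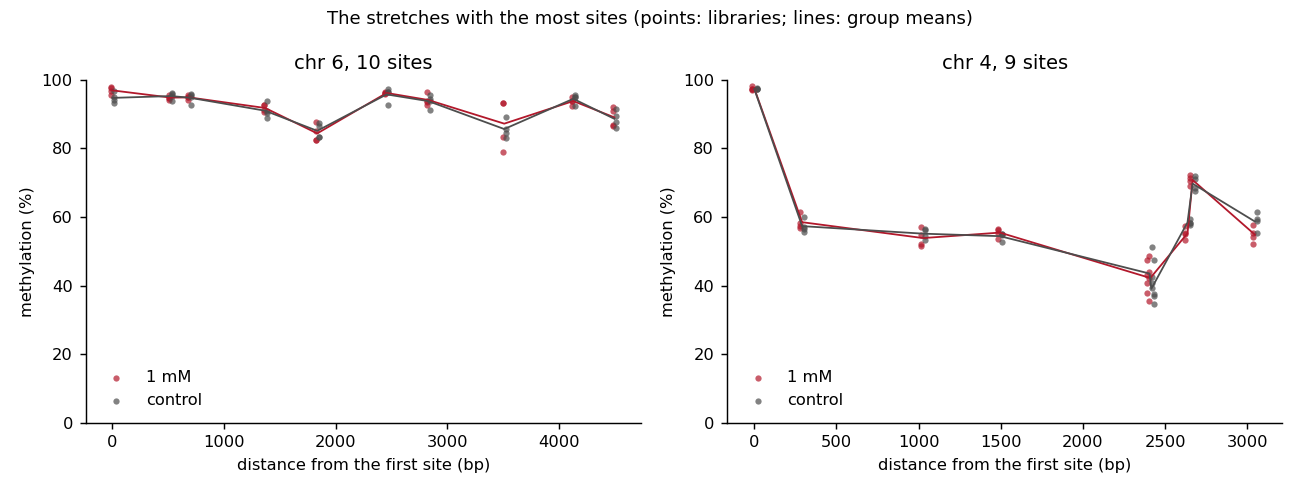
Methylation in percent along the 10-site run on chromosome 6 and the 9-site run on chromosome 4, against distance in bp from the first site of each. Points are libraries, shifted slightly to the left at 1 mM and to the right in controls, and lines join group means; both groups follow the same profile, including the step between 97.5% and 58.5% at the start of the run on chromosome 4.

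By chromosome, mean methylation differed by -0.67 to 0.60 points, with 20 chromosomes higher and 5 lower at 1 mM, and the libraries of the groups overlapped on all 25. Chromosome 3 had the lowest difference, at 88.9% ± 0.249 and 89.6% ± 0.522 over 89 sites, and chromosome 22 the highest, at 83.9% ± 0.575 and 83.3% ± 0.539 over 63 sites (SD, n = 4 each). The 25 chromosomes share the same 8 libraries, and no test was run on them.

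The median spread between libraries was larger in controls at intermediate levels, which was not tested. At intermediate sites the median SD was 2.74 points at 1 mM and 3.09 in controls, with the larger SD at 1 mM at 246 of 559 sites. At sites over 90% the medians were 0.787 and 0.845 points, and at sites under 10% they were 0.0749 and 0.0727. For the 191 intermediate stretches the median SD was 1.87 points at 1 mM and 2.37 in controls, larger at 1 mM in 71. Control library 2, the highest in the intermediate class, is among the 4 values behind each control SD, and its part in these medians was not tested.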

How the data were processed

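DNA methylation was measured by DREAM in 8 libraries, 4 at 1 mM arsenite and 4 controls, taken as replicates because the labels number them. The labels' protocol speaks of triplicate units and the series' design of quadruplicates. Neither says that the pools came from separate spawns, so p-values rest on the spread between these libraries. Both edgeR and limma pool that spread in part across sites or stretches, so their p-values do not measure the spread at a single site alone. The main edgeR test of sites had 31.1 prior degrees of freedom. Per the labels, 2.5 micrograms of DNA were cut with SmaI and XmaI after 8 standards were added, and libraries had 12 PCR cycles. Positions are in danRer7 according to processing notes of the submitters; which aligner was used is not given in the sources used here. Methylated and unmethylated reads per site were deposited by the authors and handled as estimated counts, since a fractional correction factor shares their column; every site value was whole and none was rounded. The levels the authors deposited are in percent, raw and adjusted with that factor; 12 columns of the series table were matched by title and 0 left unmatched. Levels given here are unadjusted shares of reads, and the factor, above 1 in each library, would raise them. It was 1.198 to 1.324 at 1 mM and 1.216 to 1.285 in controls, so adjustment would also change differences between the groups. Entries of standards and correction factors were dropped.

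Sites needed 20 reads in each of the 8 libraries; stretches were runs with gaps up to 1000 bp. Tests used edgeR 4.0.16 (quasi-likelihood, a coverage term for each library, group term on methylated reads, Benjamini-Hochberg, threshold 0.05) in R 4.3.3, limma 3.58.1 with a pseudocount of 1, and exact permutation tests in Python 3.11.15. Sites named were the 12 with the smallest p and those 10 points or more apart; stretches named were the 10 with the smallest p, the 5 largest differences and the 3 with most sites. The sites, lists and rules were chosen with earlier results of these data known. In the 12 replicate pairs, read counts over sites differed by more than counting error (lowest chi-square 7.29 for each degree of freedom), and each library was kept as its own replicate. Limits for sites without a read of one kind rest on 3 counts and reflect counting error alone.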

Additional observations from a re-analysis of the deposited data

Results flagged for a closer look

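Class means and the named sites and stretches gave 88 groups of 4 libraries, and 10 of them had 1 library far from the rest. Chance alone gives about 1 in 20 for normally spread values, or 4.4, though most named sites and stretches were selected for a small p or a large difference. Control library 2 was at 80.7% in mean methylation over all sites, above the other controls. At chromosome 1 position 1292889, 1 mM library 4 was at 82.2%. At unmethylated sites, 1 mM library 3 was at 0.767% on chromosome 8 position 2751348, at 1.00% on chromosome 5 position 14890555 and at 1.32% on chromosome 4 position 11070915. On that site of chromosome 5, control library 3 met the same measure at 0.0427%, but this is 1 methylated read of 2341 beside controls at 0, below what a count of 0 allows there (0.112 to 0.164%). On chromosome 8, 1 mM library 4 was at 1.22% at position 56092585 and control library 4 at 1.24% at position 56092388. On chromosome 18, position 37192948 stood at 1.19% in 1 mM library 4. In the stretch on chromosome 4 from 17905506 to 17905642, 1 mM library 3 was at 73.2%, below the other exposed libraries.

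Outside the genomic sites, 1 spiked standard stood apart: the lowest of the 8 had 2.57% methylation in library 1 and 1.78% in library 3 of the exposed group, above the highest control at 0.920%. Levels of the other standards varied between libraries too, and their groups overlapped. The standard Sla341 was at 36.6 to 37.6% at 1 mM and 37.3 to 39.0% in controls. In the other direction, Gfp was at 39.8 to 43.7% and 38.5 to 41.8%. Differences between the groups in the standards were not tested.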

How the results depend on the processing

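For single sites, the 0 calls became 8 of 2702 with a minimum of 10 reads and 1 with limma on log2 odds. Limma on adjusted levels called 2, and leaving out single libraries gave 0 to 2 calls. In settings chosen after seeing the data, there were 2 calls without 1 mM libraries 1 and 3 and 1 without 1 mM libraries 2 and 3. With the replicate block edgeR called 9 sites. The replicate numbers pair the samples only by number. Deviations of same-numbered libraries had correlations of 0.010, -0.034, 0.075 and -0.078 at intermediate sites. Of the 1 mM libraries, only library 3 correlated best with the control of its own number. In the settings with 8 and 9 calls edgeR pooled the spread across sites more strongly, with 120.5 and 693.7 prior degrees of freedom against 31.1; the cause was not tested. They shared 8 sites, 5 of which had 1 library apart; the other 3 were position 1292889 on chromosome 1 (adjusted p = 0.0154 and 0.000449), position 4440116 on chromosome 6 (0.0154 and 0.00142) and position 16937836 on chromosome 19 (0.0309 and 0.0332). For stretches every setting gave 0 calls, and the block changed no other call. The 10-site run on chromosome 6 changed sign when single libraries were left out (-0.29 to 0.46 points), as did the 7-site run on chromosome 11 (-0.0874 to 0.71), which was also at -0.046 points without 1 mM libraries 1 and 3. Differences in class means kept their sign throughout, and none passed the threshold. Over 16 alternatives, which include adjusted levels, the difference over all sites ranged from 0.0495 to 0.293 points. At sites of 10 to 90% it ranged from 0.0162 to 0.892 points. For class means the replicate block and the settings without 2 libraries allow too few arrangements of the libraries to reach a p of 0.05, so they could not have passed. With 1 library left out, a single class at the smallest possible p would not pass after adjustment either. Among intermediate sites, intervals were wider at lower depth, with a median width of 18.4 points where the shallowest library had under 50 reads and 10.0 where it had 200 or more.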
